A study of Mus musculus with 12 samples.

Results

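Cholesterol and fatty acids are built in the cytosol and endoplasmic reticulum from acetyl-CoA, and the genes of both routes are driven by the sterol regulatory element-binding proteins (SREBPs). SREBP-2, encoded by Srebf2, acts mainly on sterol genes and SREBP-1, encoded by Srebf1, mainly on fatty acid genes. Scap carries an SREBP precursor to the Golgi when membrane cholesterol is low, the site 1 and site 2 proteases (Mbtps1 and Mbtps2) release its active fragment there, and the Insig proteins hold Scap back when sterols are plentiful. In macrophages, which take up lipid-rich debris, the programme is known to fall as the cells load with sterol.

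The members were 36 named genes of this programme, found by symbol among the 55401 gene IDs of the count table. They comprised 19 enzymes of sterol and isoprenoid synthesis, 7 genes of the SREBP system, the sterol transfer protein gene Stard4 and 9 enzymes of fatty acid synthesis. The list was chosen with earlier results of these data known. All 36 passed the filter on low counts, and every member was above 1 CPM (counts scaled to a common library total) in all 12 libraries.

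The cells were bone marrow derived macrophages of mice of the C57BL6 background, that is, marrow cells grown out with macrophage colony-stimulating factor (M-CSF, 20 ng/mL) and taken on day 7. The old group held 6 libraries from animals aged 12 months, and the young group 6 libraries from animals aged 8 weeks. Each library is labelled a biological replicate, but none is tied to an animal, and the p-values reflect only how these libraries vary. Since marrow was cultured for days, the RNA describes cultured cells and not macrophages of aged tissue.

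Assigned counts per library ranged from 19345587 to 22356812 in old and from 22150081 to 25169045 in young macrophages. Macrophage markers were abundant in both groups, and the summed level of 10 of them ranged from 33230 to 44463 CPM in old and from 27792 to 45775 CPM in young libraries. Of 7 adipocyte markers 5 were at 0 in every library, Plin1 among them. The sum of all 7 reached at most 0.0903 CPM in old and 0.177 CPM in young libraries. Cell cycle genes were highest in old replicates 2 and 3 among old libraries and in young replicate 6 among young ones. B cell markers summed to 89.3 to 261 CPM in old and 32.5 to 321 CPM in young libraries, nearly all of it Ighm, with Pax5 at 0 in every library. Monocyte and progenitor markers summed to 45.3 to 97.0 CPM in old and 45.6 to 80.6 CPM in young. Ccr2 was the most abundant of them, at 36.6 CPM on average over the 12 libraries. Of 5 tested genes 3 had a log2 fold change above 0 and 2 below (median 0.53). Ly6c2 was at 4.46 CPM in old and 0.890 CPM in young on average (unadjusted edgeR p of 0.037, adjusted p of 0.77). T and NK markers summed to 5.12 to 32.4 CPM in old and 7.40 to 34.7 CPM in young, mostly Cd4, which had a log2 fold change of -0.87 (unadjusted edgeR p of 0.034). The remaining lists, of neutrophils, dendritic cells, osteoclasts, mast cells and basophils, erythroid cells and megakaryocytes, and stromal and endothelial cells, reached at most 87.1 CPM in old and 50.9 CPM in young libraries. The part of such cells in the member levels was not tested.

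The regulatory sequence of 6 genes is shown because SREBPs bind sterol elements in such windows, usually beside CCAAT boxes bound by NF-Y. Each line gives 250 bases before to 50 bases after the transcript start, 5′ to 3′ on the gene's strand, from RefSeq's annotation of GRCm38.p6. Capitals mark a sterol element (searched as TCACNCCA) or a CCAAT box (searched as CCAAT), each on both strands, and the pair may overlap. Hmgcs1 lies at chr13:119690101-119690400 (plus strand), Mvd at chr8:122443373-122443672 (minus), Cyp51 at chr5:4104648-4104947 (minus), Msmo1 at chr8:64733529-64733828 (minus), Nsdhl at chrX:72918271-72918570 (plus) and Srebf2 at chr15:82147019-82147318 (plus).
Hmgcs1: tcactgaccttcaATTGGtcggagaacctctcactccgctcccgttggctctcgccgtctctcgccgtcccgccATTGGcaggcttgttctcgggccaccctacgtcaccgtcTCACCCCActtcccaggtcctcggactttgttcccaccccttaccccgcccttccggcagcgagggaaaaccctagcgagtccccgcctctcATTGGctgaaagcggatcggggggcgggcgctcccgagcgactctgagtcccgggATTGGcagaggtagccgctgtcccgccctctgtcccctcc
Mvd: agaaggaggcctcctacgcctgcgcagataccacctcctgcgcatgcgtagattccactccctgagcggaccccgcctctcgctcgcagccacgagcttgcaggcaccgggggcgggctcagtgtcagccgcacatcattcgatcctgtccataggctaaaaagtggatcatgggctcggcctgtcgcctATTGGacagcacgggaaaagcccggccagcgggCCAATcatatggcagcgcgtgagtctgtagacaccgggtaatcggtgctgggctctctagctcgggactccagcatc
Cyp51: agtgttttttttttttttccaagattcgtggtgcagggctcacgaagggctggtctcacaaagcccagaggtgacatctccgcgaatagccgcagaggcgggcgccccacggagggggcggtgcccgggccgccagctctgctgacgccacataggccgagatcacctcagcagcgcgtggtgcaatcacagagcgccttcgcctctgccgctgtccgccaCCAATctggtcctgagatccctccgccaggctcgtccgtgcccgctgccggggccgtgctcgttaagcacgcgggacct
Msmo1: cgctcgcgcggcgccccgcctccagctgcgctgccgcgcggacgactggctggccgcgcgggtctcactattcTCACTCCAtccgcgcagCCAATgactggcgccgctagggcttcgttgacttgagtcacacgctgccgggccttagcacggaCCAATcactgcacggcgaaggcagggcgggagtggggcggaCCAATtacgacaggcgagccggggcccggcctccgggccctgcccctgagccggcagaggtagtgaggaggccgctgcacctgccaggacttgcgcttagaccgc
Nsdhl: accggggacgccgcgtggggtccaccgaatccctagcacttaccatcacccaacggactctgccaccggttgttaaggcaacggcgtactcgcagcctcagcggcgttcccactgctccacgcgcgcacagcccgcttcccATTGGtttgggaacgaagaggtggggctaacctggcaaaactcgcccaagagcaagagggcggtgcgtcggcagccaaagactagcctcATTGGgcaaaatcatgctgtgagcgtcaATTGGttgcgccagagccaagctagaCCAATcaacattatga
Srebf2: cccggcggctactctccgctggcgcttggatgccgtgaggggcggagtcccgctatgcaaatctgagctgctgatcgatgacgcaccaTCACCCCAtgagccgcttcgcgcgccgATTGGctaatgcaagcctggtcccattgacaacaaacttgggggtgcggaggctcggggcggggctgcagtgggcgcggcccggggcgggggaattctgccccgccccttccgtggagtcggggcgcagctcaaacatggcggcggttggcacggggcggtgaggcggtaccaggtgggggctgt
Of the 36 members 30 had such a window in the table, and Scd2, Stard4, Sqle, Fdft1, Fads1 and Fdps had none. A CCAAT box was found for 23 of the 30 (76.7%), against 43.0% of the 9375 tested genes that had a window, and for 15 of the 16 sterol enzymes. TCACNCCA was found in Hmgcs1, Msmo1 and Srebf2, that is in 10.0% of members and 4.64% of tested genes. The Hmgcs1 and Srebf2 elements share the letters TCACCCCA, starting 137 and 162 bases before their starts. The E-box CACGTG was found in 20.0% of members and 12.0% of tested genes, and the GC box GGGCGG in 76.7% and 68.7%. These letter matches describe the windows only, and the motifs were chosen with the members known.

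Per kilobase of exon, mean levels over the 12 libraries ranged from 0.709 CPM per kb for Elovl6 to 35.1 CPM per kb for Fads1. The length merges all annotated exons of a gene and can exceed that of its main transcript, so ranks between genes are approximate. Fads1, a delta-5 desaturase of polyunsaturated fatty acids, was at 34.2 CPM per kb in old and 36.1 CPM per kb in young libraries. It was followed by Ebp, a sterol isomerase, at 28.7 CPM per kb in old and 32.0 CPM per kb in young, and by Acly, which makes cytosolic acetyl-CoA from citrate, at 26.5 CPM per kb in old and 25.7 CPM per kb in young. The regulators Insig1 (23.0 CPM per kb in old, 24.8 in young) and Srebf2 (22.7 in old, 24.9 in young) came next. Together the members held 0.149% to 0.197% of assigned counts in old and 0.149% to 0.228% in young libraries.

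**Figure D1:**
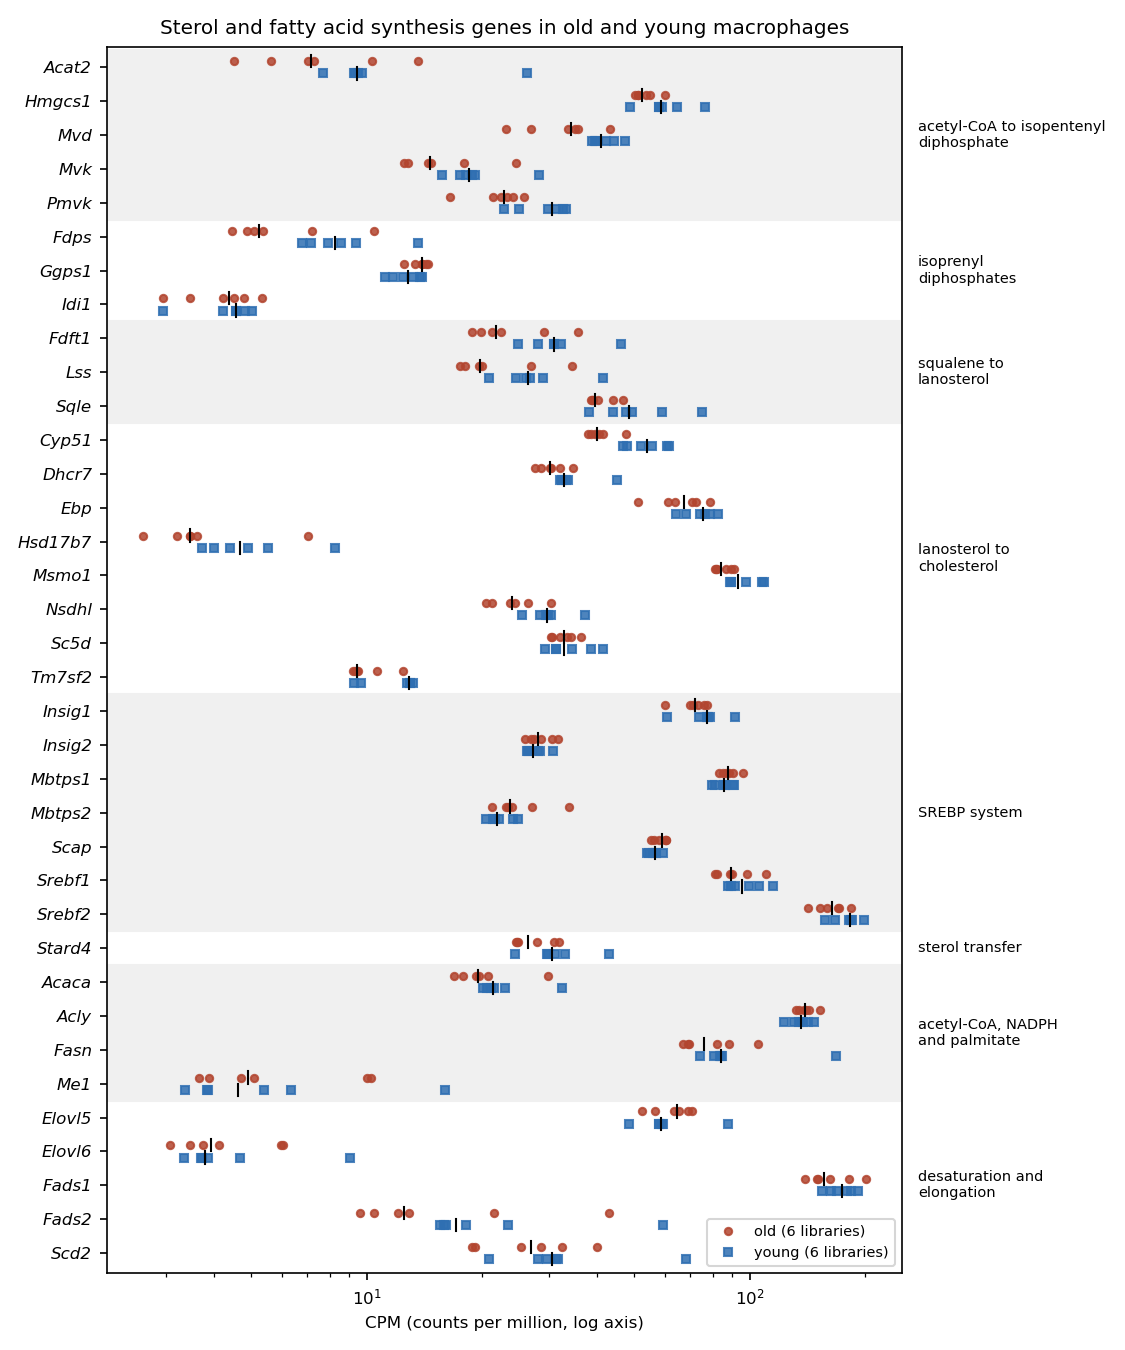
Levels of the 36 members in CPM (log axis), with 1 point per library, old libraries (circles) above young ones (squares) for each gene and a black bar at each group's median. Groups overlap for every member, and isolated high points of Fasn, Me1, Fads2, Scd2 and Acat2 belong to young replicate 6.

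The comparison of old with young macrophages asked whether the programme differs with the age of the marrow donor. No member passed the test over all 12620 genes (edgeR's quasi-likelihood test, Benjamini-Hochberg adjusted p below 0.05, which 2 genes or 0.0158% passed). Adjusted p-values were 0.516 for Cyp51 and 0.770 to 0.979 for the other 35. At an unadjusted p below 0.05 there were 8 members, all lower in old libraries and all enzymes of sterol synthesis, against 2.24% of all genes in that direction. That is 22.2% of the members, and 0 members were higher at this p, against 3.23% of all genes (5.47% in both directions). DESeq2 called 1 member, Cyp51, where it called 0.0931% of genes, and limma voom called 0. A log2 fold change below 0 was found for 29 of 36 members (80.6%), against 52.5% of all genes, and its median was -0.18 against -0.01 over all genes. Without young replicate 6 the median of the members was -0.10. No member separated the groups completely, as 0.206% of genes did. Scaling by library size alone left 5 members lower at an unadjusted p below 0.05, against 1.01% of all genes, and a block for the replicate number left 6, against 2.05%.

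**Figure D2:**
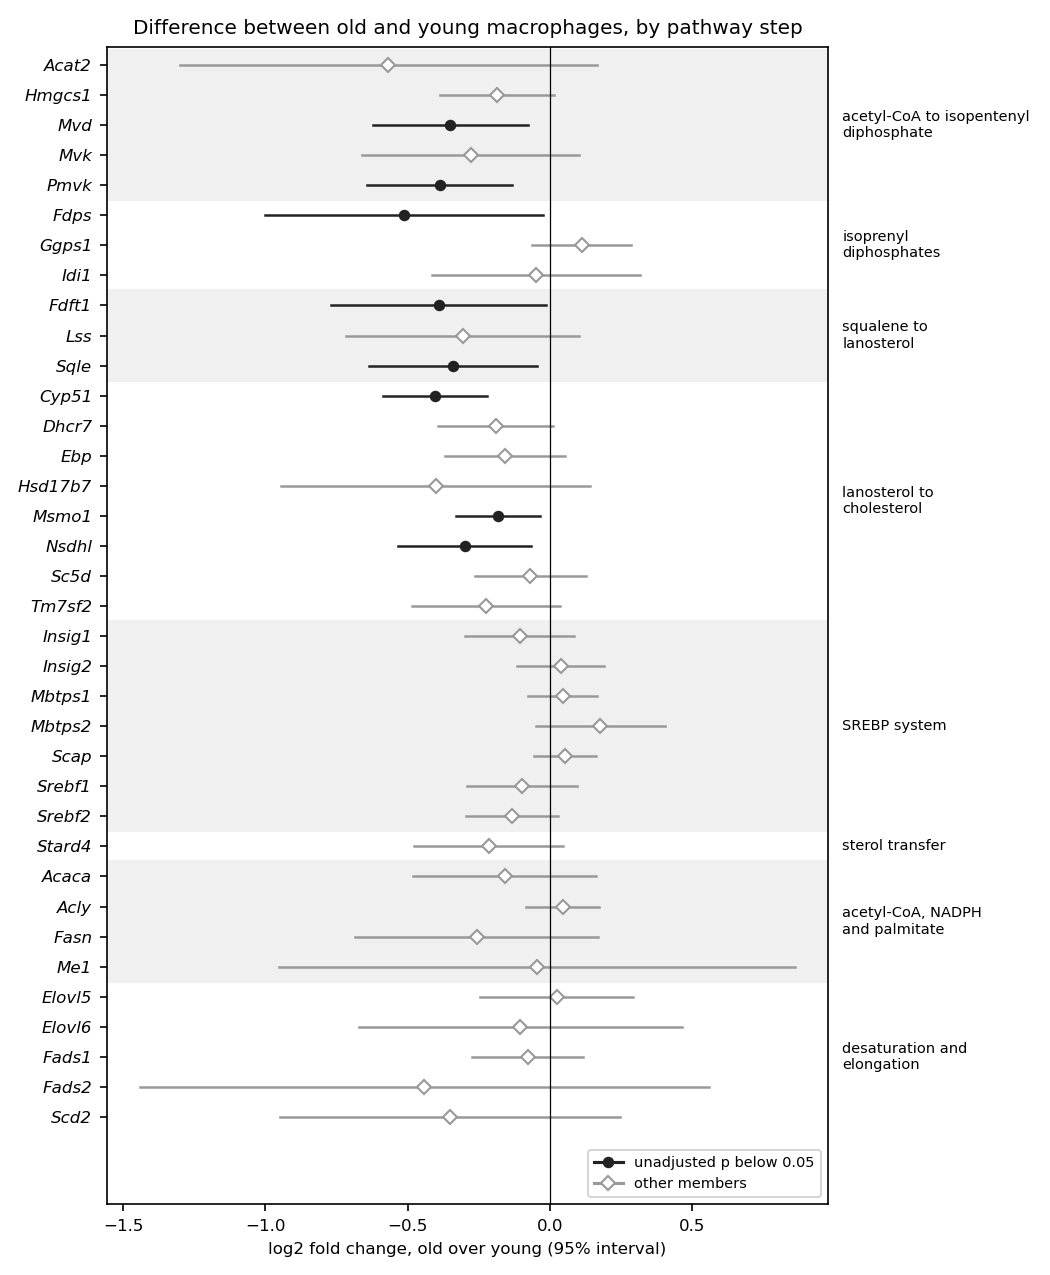
Log2 fold change of each member, old over young, from edgeR, with a 95% interval computed from its F statistic. Filled circles mark an unadjusted edgeR p below 0.05. Filled circles are found among sterol enzymes alone, and the intervals of the SREBP system are narrow and cross 0.

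In the first step, from acetyl-CoA to isopentenyl diphosphate, all 5 enzymes had a log2 fold change below 0. Pmvk, the kinase that adds a phosphate to phosphomevalonate, had a lowest, median and highest level of 16.5, 22.9 and 25.8 CPM in old libraries, against 22.8, 30.5 and 33.1 CPM in young ones. The young mean was above each of the 6 old libraries, and 3 of these were under the lowest young one. Its log2 fold change was -0.39 (SE 0.12), at an unadjusted edgeR p of 0.0058. Mvd, the decarboxylase that makes isopentenyl diphosphate and the most abundant gene of the step per kilobase, was at 23.1, 34.3 and 43.2 CPM in old and 38.7, 40.9 and 47.2 CPM in young libraries. Old replicate 2 was the only old library above the lowest young one. Its log2 fold change was -0.35 (SE 0.13), at an unadjusted edgeR p of 0.015.

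Hmgcs1, the cytosolic synthase of HMG-CoA, was at 50.3, 52.4 and 59.9 CPM in old and 48.7, 58.6 and 76.4 CPM in young libraries. Its old libraries all lay below the young mean and within the young range, with a log2 fold change of -0.19 (SE 0.09) at an unadjusted edgeR p of 0.065. Mvk, mevalonate kinase, was at 12.5, 14.6 and 24.6 CPM in old and 15.7, 18.5 and 28.2 CPM in young libraries. Acat2, a cytosolic thiolase with a close paralog, Acat3, from which short reads may not be told apart, was at 4.51, 7.14 and 13.6 CPM in old and 7.67, 9.41 and 26.2 CPM in young libraries. Its log2 fold change of -0.57 had a wide interval of -1.30 to 0.17, and it was -0.17 without young replicate 6.

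Among the isoprenyl diphosphate enzymes the levels were low. Fdps, farnesyl diphosphate synthase, was at 4.44, 5.23 and 10.5 CPM in old and 6.79, 8.24 and 13.6 CPM in young libraries, with a log2 fold change of -0.51 (SE 0.23) and an unadjusted edgeR p of 0.041. Another annotated gene covered 26.7% of its exonic bases, where unstranded counting drops reads as ambiguous. Ggps1, which extends the chain to geranylgeranyl diphosphate for protein prenylation, was at 12.5, 13.9 and 14.5 CPM in old and 11.2, 12.8 and 13.97 CPM in young libraries, the 1 sterol or isoprenoid enzyme with a positive log2 fold change (0.11, 95% interval -0.06 to 0.29). Idi1, the isomerase of isopentenyl diphosphate, was at 2.94, 4.37 and 5.33 CPM in old and 2.94, 4.56 and 5.00 CPM in young libraries.

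The 3 enzymes from farnesyl diphosphate through squalene to lanosterol had their highest old level in replicate 2 and their highest young level in replicate 6. Sqle, squalene epoxidase, a control point of the route, was at 38.6, 39.5 and 46.8 CPM in old and 38.1, 48.4 and 75.2 CPM in young libraries. All 6 old libraries lay below its young mean, with a log2 fold change of -0.34 (SE 0.14) and an unadjusted edgeR p of 0.027. Fdft1, squalene synthase, was at 18.8, 21.8 and 35.7 CPM in old and 24.9, 30.8 and 46.1 CPM in young libraries, with a log2 fold change of -0.39 (SE 0.18) and an unadjusted edgeR p of 0.044. Fdft1 shares 18.8% of its exonic bases with the cathepsin B gene Ctsb, which was at 28408 CPM in old and 28121 CPM in young libraries on average, and stray reads of Ctsb in the level of Fdft1 were not tested. Lss, the cyclase that forms lanosterol, was at 17.5, 19.8 and 34.3 CPM in old and 20.9, 26.4 and 41.5 CPM in young libraries.

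From lanosterol to cholesterol all 8 enzymes had a log2 fold change below 0, and 3 of them had an unadjusted p below 0.05. Cyp51, lanosterol 14-alpha demethylase, had the lowest p of all members. It was at 39.6, 47.4, 41.3, 37.9, 40.5 and 38.6 CPM in old replicates 1 to 6, against 61.4, 51.9, 46.7, 55.7, 47.9 and 60.7 CPM in young replicates 1 to 6. All old libraries other than replicate 2 lay below every young one, and replicate 2 lay above the lowest young library alone. The log2 fold change was -0.40 (SE 0.08, 95% interval -0.59 to -0.22), or 24.4% lower, at an unadjusted edgeR p of 3.3e-04 and an adjusted p of 0.52. In DESeq2 its adjusted p was 0.027. Akap9 covers 3.76% of its exonic bases and was at 32.2 CPM in old and 33.2 CPM in young libraries on average.

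Msmo1, which oxidises the methyl groups at carbon 4 of the sterol, was at 81.4, 84.3 and 90.7 CPM in old and 88.6, 93.3 and 109 CPM in young libraries. The groups met at their edges, with 4 old libraries below the lowest young one and all 6 below the young mean. Its log2 fold change was -0.18 (SE 0.07), at an unadjusted edgeR p of 0.020. Nsdhl, the dehydrogenase that acts after Msmo1 at the same carbon, was at 20.5, 24.0 and 30.3 CPM in old and 25.5, 29.6 and 37.1 CPM in young libraries. Its log2 fold change was -0.30 (SE 0.11), at an unadjusted edgeR p of 0.016, and 4 old libraries lay below every young one.

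Dhcr7, which closes the route by reducing 7-dehydrocholesterol, was at 27.6, 30.1 and 34.7 CPM in old and 32.0, 32.8 and 44.96 CPM in young libraries. All old libraries other than 1 lay below every young one, although its log2 fold change of -0.19 (SE 0.09) had an unadjusted edgeR p of 0.063. The coefficient of variation (SD over mean) of the young group was 14.4% with all 6 libraries and 1.897% without young replicate 6. Ebp, the most abundant of the step per kilobase, was at 51.0, 67.3 and 79.0 CPM in old and 64.3, 75.3 and 82.6 CPM in young libraries (log2 fold change -0.16, SE 0.10, unadjusted edgeR p of 0.14). Tm7sf2, a sterol C14 reductase, was at 9.20, 9.45 and 12.4 CPM in old and 9.28, 12.9 and 13.2 CPM in young libraries, with a log2 fold change of -0.23 (SE 0.12) and an unadjusted edgeR p of 0.084.

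Hsd17b7, a 3-ketosteroid reductase of the route, was at 2.60, 3.46 and 7.05 CPM in old and 3.71, 4.66 and 8.25 CPM in young libraries, and 5 old libraries lay below every young one while old replicate 6 stood at 7.05 CPM. Sc5d, a sterol desaturase, was at 30.3, 32.7 and 36.3 CPM in old and 29.2, 32.8 and 41.3 CPM in young libraries, close in both groups (log2 fold change -0.07, 95% interval -0.26 to 0.13).

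In the SREBP system 0 of 7 genes had an unadjusted edgeR p below 0.05. The 95% intervals of all 7 lay inside a 1.5-fold difference in either direction, which held for 21 of the 36 members. That limit is wide, since 2 of the 8 members at an unadjusted p below 0.05 met it too. Srebf2 was at 142, 165 and 184 CPM in old and 157, 183 and 199 CPM in young libraries, with a log2 fold change of -0.13 (95% interval -0.30 to 0.03) and 5 of 6 old libraries below the young mean. Srebf1 was at 81.0, 89.4 and 110 CPM in old and 87.9, 95.5 and 115 CPM in young libraries (log2 fold change -0.10, interval -0.29 to 0.10). Scap was the steadiest member, at 55.4, 58.9 and 60.5 CPM in old and 53.8, 56.5 and 59.3 CPM in young libraries, with coefficients of variation of 3.77% in old and 3.42% in young.

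Insig1, itself a target of SREBPs and the most abundant gene of the system per kilobase, was at 60.1, 72.2 and 77.2 CPM in old and 61.0, 77.5 and 91.4 CPM in young libraries. Its log2 fold change was -0.11 (SE 0.09), at an unadjusted edgeR p of 0.26. Insig2 was at 25.9, 27.9 and 31.6 CPM in old and 26.2, 27.3 and 30.6 CPM in young libraries. The protease genes Mbtps1 (83.2, 87.5 and 96.0 CPM in old; 79.7, 85.7 and 90.8 CPM in young) and Mbtps2 (21.3, 23.6 and 33.7 CPM in old; 20.5, 21.9 and 24.8 CPM in young) had log2 fold changes of 0.05 and 0.18. For these 4 genes the groups overlapped. Stard4, which moves cholesterol between membranes, was at 24.6, 26.3 and 31.7 CPM in old and 24.4, 30.4 and 42.9 CPM in young libraries, with a log2 fold change of -0.21 (SE 0.12) and an unadjusted edgeR p of 0.10.

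Of the 9 fatty acid enzymes 0 had an unadjusted p below 0.05, and their unadjusted edgeR p-values ranged from 0.21 to 0.92. Whether this share differs from that of the sterol enzymes (8 of 19) was not tested. Acly was at 132, 140 and 153 CPM in old and 123, 136 and 147 CPM in young libraries, with a log2 fold change of 0.05 (SE 0.06, 95% interval -0.08 to 0.17). Acaca, acetyl-CoA carboxylase, was at 16.9, 19.5 and 29.8 CPM in old and 20.1, 21.3 and 32.3 CPM in young libraries. Fasn, fatty acid synthase, was at 67.1, 75.8 and 105 CPM in old and 74.3, 83.9 and 168 CPM in young libraries. Me1, malic enzyme, which supplies NADPH, was at 3.64, 4.89 and 10.3 CPM in old and 3.35, 4.62 and 15.97 CPM in young libraries.

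Fads1 was at 140, 157 and 201 CPM in old and 154, 174 and 192 CPM in young libraries, with a log2 fold change of -0.08 (SE 0.09) and an unadjusted edgeR p of 0.41. Fads2, the delta-6 desaturase, ranged widely, from 9.63 to 42.8 CPM in old (median 12.5) and from 15.5 to 59.4 CPM in young libraries (median 17.1). Scd2, a stearoyl-CoA desaturase, was at 18.8, 26.9 and 40.0 CPM in old and 20.9, 30.4 and 68.0 CPM in young libraries. The elongases were at 52.3, 64.5 and 70.6 CPM in old and 48.3, 58.6 and 87.9 CPM in young libraries for Elovl5, and at 3.07, 3.92 and 6.05 CPM in old and 3.33, 3.78 and 9.06 CPM in young libraries for Elovl6. For Fads2 the log2 fold change was -0.44 with a wide 95% interval of -1.44 to 0.56.

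Within each group many members were highest in the same library. Young replicate 6 was the highest young library for 27 of 36 members (34.4% of all genes), and old replicate 2 was the highest old library for 24 (29.2% of all genes). All 9 fatty acid enzymes were highest in young replicate 6. Young replicate 6 lay apart from the other young libraries by Dixon's criterion for 11 of the 36 members, against 1396 of the 12620 genes tested (11.1%). Set against the median of the other young libraries, young replicate 6 held 4.15 times the Me1, 3.69 times the Fads2, 2.80 times the Acat2, 2.44 times the Elovl6, 2.30 times the Scd2 and 2.01 times the Fasn. Old replicate 2 held 3.54 times the Fads2 and 2.14 times the Me1 of the median of the other old libraries. A ratio above 1.5 was found in young replicate 6 for 7 of the 9 fatty acid enzymes, 6 of the 19 sterol enzymes and 0 of the 7 genes of the SREBP system, and for 14.8% of all genes.

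Both libraries also had the highest mean level of 40 cell cycle genes in their groups. Their mean was 5.83 log2 CPM in old replicate 2, 5.26 in old replicate 3 and at most 4.21 in any other old library. It was 6.50 in young replicate 6, with a range of 4.08 to 4.91 in its 5 companions. Of the 10 macrophage markers 6 were lowest of their group in old replicate 2 and 7 in young replicate 6. Their sum was 33230 CPM in old replicate 2 (38096 to 44463 CPM in the other old libraries) and 27792 CPM in young replicate 6 (39018 to 45775 CPM in the other young libraries). Adgre1, the gene of F4/80, was at 923 CPM in old replicate 2 and 745 CPM in young replicate 6, the lowest of each group, whereas Cd68, a lysosomal glycoprotein gene, was not low there, at 2646 CPM in old replicate 2 and 2838 CPM in young replicate 6. More dividing cells and more RNA of these genes per cell cannot be told apart in bulk samples, and the part of either in the member levels was not tested.

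**Figure D3:**
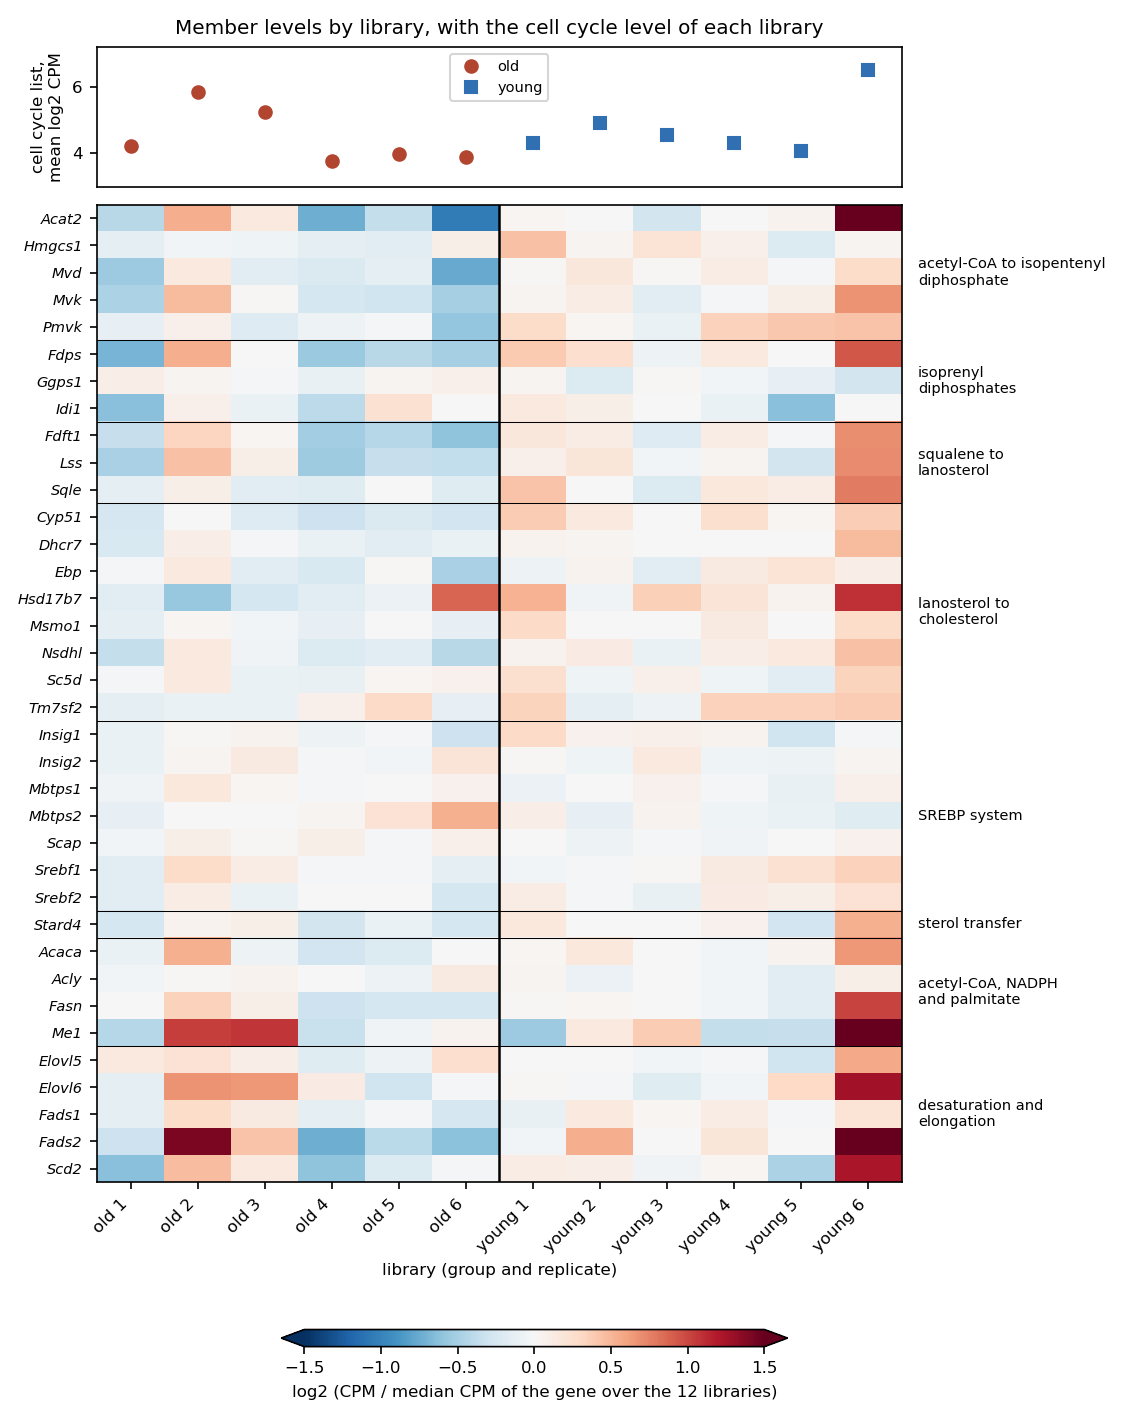
Level of each member in each library as log2 of its CPM over the gene's median of the 12 libraries (colour), with old libraries left of young ones, and above it the mean log2 CPM of 40 cell cycle genes. Young replicate 6 and old replicate 2 have high cell cycle levels and high levels of Fads2, Me1, Scd2 and Acat2, while old replicate 6 is high for Hsd17b7 and Mbtps2; colours stop at 1.5 in either direction.

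A further fit left out young replicate 6 and old replicates 2 and 3, which had the highest cell cycle levels of these data. They were picked with these levels known, and more old than young libraries were dropped. Both choices can shift directions and p-values, so this fit gives no independent support. In it 18 members had an unadjusted edgeR p below 0.05, all lower in old libraries, against 8.81% of all genes in that direction. Of these 12 were sterol enzymes and 4 fatty acid enzymes, and the other 2 were Srebf1 and Stard4. The adjusted threshold was passed by 0 members. Fasn then had a log2 fold change of -0.18 (unadjusted edgeR p of 0.030) and Fads2 one of -0.66 (unadjusted edgeR p of 3.4e-04, adjusted p of 0.12). Without young replicate 6 alone the log2 fold changes were -0.02 for Fasn, 0.04 for Fads2, 0.46 for Me1 and 0.19 for Elovl6. Without all 3 libraries they were negative again for Me1 (-0.08) and Elovl6 (-0.10), so the direction of Fads2, Me1 and Elovl6 depended on which of the high libraries were kept. When that cell cycle mean entered the fit of all 12 libraries, 12 members were lower at an unadjusted p below 0.05, against 3.30% of all genes. The median log2 fold change of the members was then -0.14, with -0.35 for Acat2, -0.21 for Fads2 and -0.10 for Fasn. All 40 cell cycle genes themselves had a log2 fold change below 0, with a median of -0.30 and 0 of them at an unadjusted p below 0.05, and their part in the member levels was not tested. Cyp51 had an unadjusted edgeR p of 1.9e-04 without the 3 libraries and 9.1e-05 with the covariate, with adjusted p-values of 0.12 and 0.13. The count of 8 was 16 without old replicate 2 (5.67% of all genes), 5 without young replicate 6 (2.50%), 5 without old replicate 4 (1.30%) and 4 without young replicate 1 (2.49%).

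Levels were also summed over each step. The 5 enzymes from acetyl-CoA to isopentenyl diphosphate summed to 133 ± 16.3 CPM in old and 163 ± 16.9 CPM in young libraries (SD, n = 6 each), with the young mean above each of the 6 old libraries. The 3 enzymes around squalene summed to 88.4 ± 15.5 CPM in old and 112 ± 26.7 CPM in young, and the 8 enzymes after lanosterol to 294 ± 20.9 CPM in old and 341 ± 29.3 CPM in young. The SREBP system summed to 527 ± 31.0 CPM in old and 546 ± 23.7 CPM in young, and the acetyl-CoA, NADPH and palmitate group to 247 ± 23.2 CPM in old and 261 ± 51.0 CPM in young. The ratio of the means, old over young, was 0.787 around squalene, 0.813 in the first step, 0.863 after lanosterol, 0.965 for the SREBP system and 0.947 for the palmitate group. Without the 3 libraries these ratios were 0.780, 0.788, 0.862, 0.952 and 0.973. Without young replicate 6 alone they were 0.865, 0.843, 0.888, 0.980 and 1.03, which turned the direction of the palmitate group. Desaturation and elongation turned as well, from a ratio of 0.925 with all libraries to 1.003 without young replicate 6. It was 0.904 without the 3 libraries. The ratio of the isoprenyl diphosphate enzymes went from 0.931 to 0.956 without young replicate 6, and that of Stard4 from 0.862 to 0.927. Sums over chosen members were not tested.

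**Figure D4:**
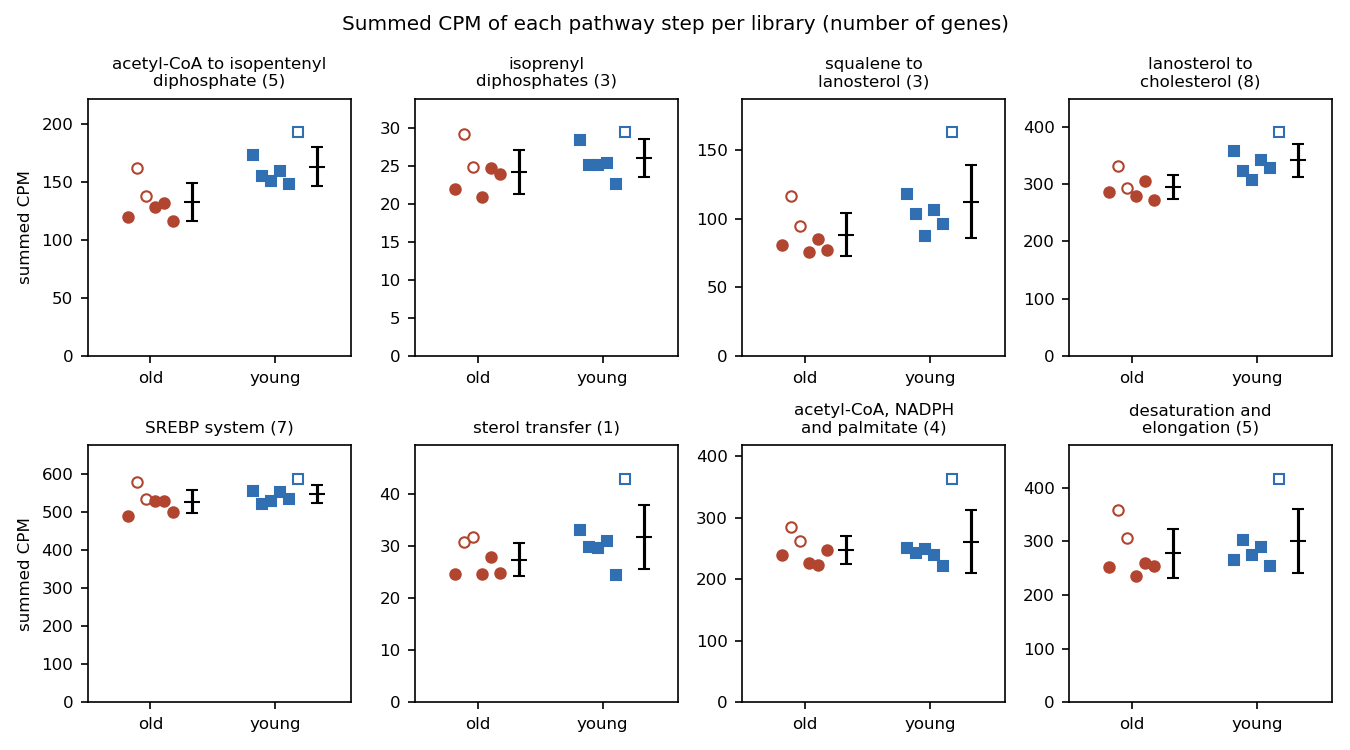
Summed CPM of the members of each step per library, old (circles) left of young (squares), with the mean and SD of 6 libraries beside them; open symbols are old replicates 2 and 3 and young replicate 6. The ratio of means, old over young, was 0.787 from squalene to lanosterol and 0.965 for the SREBP system.

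Genes that work beside the members were counted from 9 lists, again with 0 genes past the adjusted threshold in edgeR. 1 of these lists mixed elongation cycle enzymes with Acacb and genes of mitochondrial fatty acid synthesis, such as Mecr. Of its 10 tested genes 9 had a log2 fold change below 0 (median -0.15). Tecr, the last elongation reductase, was at 155 ± 23.8 CPM in old and 178 ± 18.8 CPM in young libraries (SD, n = 6 each). Mecr had a log2 fold change of -0.27 (unadjusted edgeR p of 0.067). Young replicate 6 was the highest young library for 9 of the 10, and without it Mecr was at -0.12 and Tecr at -0.16. Of 9 genes of citrate, acetate and NADPH supply 8 were below 0 (median -0.12), such as Slc25a1, the mitochondrial citrate carrier (log2 fold change -0.16, unadjusted edgeR p of 0.085), while Idh1, which makes cytosolic NADPH, was the 1 above 0 (0.20, and 0.10 without young replicate 6). Of 7 tested electron and carrier partners 6 were below 0 (median -0.12), with Por, the reductase that feeds electrons to Cyp51 and Sqle, at -0.02 and Tmem97 at -0.21, or -0.05 without young replicate 6. Of 12 genes that use isoprenoids 10 were below 0 (median -0.10), such as the farnesyltransferase subunit gene Fnta (-0.09), with Nus1, of dolichol synthesis, above 0 (0.13). None of these 4 lists had a gene at an unadjusted p below 0.05.

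Genes of sterol handling that do not make sterols lay on both sides of 0. Of 13 genes of lysosomal and membrane sterol transport 8 were above 0 (median 0.06), with Npc1, which exports cholesterol from lysosomes, at 256 ± 33.4 CPM in old and 217 ± 28.2 CPM in young libraries (log2 fold change 0.24, unadjusted edgeR p of 0.033, and 0.062 without young replicate 6) and its partner Npc2 at -0.07. Of 10 genes of the LXR axis, which responds to oxysterols, 5 were above 0 (median 0.01). Mylip, an LXR target that degrades lipoprotein receptors, was at 0.44 (unadjusted edgeR p of 0.026), and Apoe, the most abundant, at 0.02, or -0.14 without young replicate 6. Of 8 SREBP cofactors 7 were above 0 (median 0.07), with Ep300 at 0.36 (unadjusted edgeR p of 0.032, and 0.052 without young replicate 6) and Usf1 at -0.09. The 8 genes of sterol-driven protein degradation split evenly (median 0.01, Vcp at -0.09 and Erlin1 at 0.10). The 15 genes of fatty acid activation and glycerolipid synthesis had a median of -0.01, with Agpat1 at -0.04 and Agpat3 at -0.14 (unadjusted edgeR p of 0.013).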

How the data were processed

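RNA of bone marrow derived macrophages was sequenced in 12 libraries, 6 old and 6 young. Reads were aligned to mm10 with STAR, per the submitters' processing notes, and the deposited table holds raw counts per gene from featureCounts 1.6.0 with an Ensembl 100 annotation of GRCm38, unstranded, per the file headers. Reads in bases shared by 2 genes, and multi-mapping reads, were therefore not counted. Of counts from 1 to 20, 74.7% were even, so both mates of a pair may have been counted; their part in the errors was not tested.

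Symbols came from a gene name table, which matched 55141 of 55401 IDs. Counts were tested with edgeR 4.0.16 (R 4.3.3) after filterByExpr, with TMM scaling and a robust quasi-likelihood F test of old against young. P-values were adjusted over all 12620 genes tested by Benjamini-Hochberg. CPM used the TMM-scaled library sizes. DESeq2 1.42.0, limma 3.58.1 (voom), other scalings and filters, a replicate block, a cell cycle covariate and leaving out libraries were alternatives. The members, lists and genes named from them (all 36 members, and in each other list the most abundant per kilobase and the lowest p) were chosen with earlier results of these data known. Promoter windows came from RefSeq (GRCm38.p6).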

Additional observations from a re-analysis of the deposited data

Results flagged for a closer look

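In a group of 6, a library was singled out when its gap to the next library passed Dixon's critical share of the group's range. For independent, normally distributed values this happens in about 1 of 20 groups. Of 72 member groups 15 had such a library. Members varied together between libraries, and young replicate 6 alone stood apart as the highest for 11.1% of all genes. The rate of 1 in 20 is therefore no baseline for these groups. Old replicate 2 stood apart for Cyp51 (47.44 CPM, against 37.87 to 41.29 CPM in the other old libraries), Acaca (29.81 CPM) and Fads2 (42.79 CPM). Old replicate 6 stood apart for Hsd17b7, at 7.046 CPM against at most 3.612 CPM in the other old libraries.

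Young replicate 6 stood apart, as the highest young library, for 11 of the 36 members. Among sterol enzymes these were Acat2 (26.2 CPM), Mvk (28.22 CPM), Fdft1 (46.09 CPM) and Dhcr7 (44.96 CPM). Among fatty acid enzymes they were Acaca (32.35 CPM), Fasn (168.2 CPM), Me1 (15.97 CPM), Elovl5 (87.86 CPM), Elovl6 (9.057 CPM), Fads2 (59.35 CPM) and Scd2 (68.05 CPM). Over all tested genes, 11.1% had young replicate 6 apart in this way. Its summed level was 363.2 CPM for the acetyl-CoA, NADPH and palmitate group, against at most 250.8 CPM in the other young libraries, and 416.0 CPM for desaturation and elongation, against at most 301.6 CPM. Its mean cell cycle level of 6.505 log2 CPM stood apart too, with 4.082 to 4.913 in the other young libraries.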

How the results depend on the processing

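Under 23 alternatives 31 of 36 members kept the sign of their log2 fold change, and the 8 at an unadjusted p below 0.05 were negative under each. The count of 8 became 5 with library size scaling (1.01% of all genes), 18 without young replicate 6, old replicates 2 and 3 (8.81%), and 4 to 16 leaving out 1 library, where the share of all genes also moved from 2.24%. The median of the members, -0.18, was -0.22 to -0.10 leaving out 1 library, the highest without young replicate 6. Called members numbered 1 in DESeq2. Called genes, 2 in edgeR, numbered 4 without the filter, 4 with the replicate block, 5 with the cell cycle covariate, 15 in DESeq2 and 1 to 5 leaving out 1 library. Leaving out 1 library gave -0.0356 to 0.15 for Elovl5, -0.21 to 0.19 for Elovl6, -0.89 to 0.0353 for Fads2, -0.14 to 0.0357 for Idi1 and -0.24 to 0.46 for Me1. Elovl6 was 0.0616 with the covariate, and the log2 fold change of Me1 was 0.0796 with the replicate block, 0.28 with the covariate and 0.0571 in limma voom. The causes were not tested. With the replicate block 6 members were lower at an unadjusted p below 0.05, against 2.05% of all genes. The numbers were not taken as pairs because the labels do not say that they pair the libraries. Over the tested genes, deviations of libraries with the same number correlated at -0.17 to 0.39 (Pearson). Of 6 old libraries 2 matched their own number best. These values cannot settle pairing, since old replicates 2 and 3 both matched young replicate 6 best, the library with high cell cycle levels. Hsd17b7, Idi1, Elovl6 and Me1 had the lowest mean levels of the members (4.51, 4.28, 4.56 and 6.36 CPM over the 12 libraries). The part of low counts in their spread was not tested.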
